A study of Patiria miniata with 46 samples.

Results

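The comparison described here set 4 neighbouring cryosections of a sea star arm, proximo-distal sections 16 to 19, against the 4 that precede them, sections 12 to 15. The 8 sections were chosen by their section numbers from the 46 libraries of the study. It was already known that each carried a large share of reads from a single locus, V4_HAP1_PB.21421. The study measured polyA RNA as full-length transcripts in cryosections of young bat stars (Patiria miniata) of about 2 cm whose arms had been separated. Specimen 1 gave 22 proximo-distal and 8 oral-aboral sections, and specimen 2 gave 16 left-right sections. No animal was treated, and no genotype or age in days is stated. The 8 sections came from specimen 1 and each was sequenced once, so they are positions along an axis in 1 animal and not biological replicates. Every p-value below measures the spread among neighbouring sections. Sections were numbered along the arm, and the labels do not say which end carries number 1.

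A sea star arm is a layered organ. Its body wall encloses a coelom that holds the digestive glands, the radial nerve cord runs along the oral side, and tube feet line the groove beneath. A slice across the arm therefore mixes skin, nerve, muscle, coelomic lining and gut in proportions that change with position. Transcription factors of the Hox, NK and forkhead families and signalling proteins of the Wnt, BMP, FGF and Hedgehog families mark territories in animal bodies. FoxA is a forkhead factor of the endoderm in animals generally, Nkx2.2 and Nkx6 are NK-family homeobox factors known from the nervous system and pancreas of vertebrates, and Wnt ligands signal through Frizzled receptors and are held back by secreted antagonists such as the Sfrp and Dkk proteins.

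The 8 libraries held 296661 to 680685 counts, of which 183958 (section 15) to 389757 (section 17) fell outside V4_HAP1_PB.21421. Levels are given as CPM, the counts of a locus divided by all counts other than those of V4_HAP1_PB.21421 and multiplied by 1000000, so 1 count was worth 2.57 to 5.44 CPM and a floor of 3 counts lay at 7.70 to 16.3 CPM. Of 23869 loci in the table, 8229 passed the low-count filter in the 8 sections. The table pairs 66 loci with gene symbols; 34 of these passed the filter. The others have only an assembly identifier, and 0 of those identifiers matched an entry among the RefSeq genes (assembly Pmin_3.0). CPM is a relative measure, and in a bulk slice fewer cells of a type and less RNA per cell cannot be told apart.

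V4_HAP1_PB.21421, which has no gene name in the files, rose and fell across the 8 sections like a dome with its top at the border between the sides. Its share of all counts was 16.5% in section 12, 21.8% in section 13, 33.8% in section 14 and 50.3% in section 15. On the other side it was 49.6% in section 16, 42.7% in section 17, 32.9% in section 18 and 21.1% in section 19. The sections next to the border were high on both sides, the outermost sections were low on both sides, and the groups overlapped over most of their range. Exact 95% binomial intervals of these shares spanned less than 0.5 percentage points, for example 50.1% to 50.5% in section 15, and cover counting error only.

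The side means were 30.6% ± 15.0 for sections 12 to 15 and 36.6% ± 12.4 for sections 16 to 19 (SD, n = 4 each). The difference of 5.99 percentage points was smaller than either SD and did not pass an exact two-sided permutation test (p = 0.629, or 0.857 adjusted over 3 library measures; the smallest p that 70 splits allow is 0.0286). Tested as a level against the other loci, it differed by 0.36 ± 0.70 on the log2 scale (SE) with a 95% interval from -1.11 to 1.82 (adjusted p = 0.924, edgeR quasi-likelihood test with Benjamini-Hochberg adjustment). That interval is wide, so the sides were not shown to be alike in its level. Both values turned on single sections. Without section 12, 13, 16 or 17 the difference in share was 1.30, 3.06, 1.66 or 3.95 points, and without section 15 or 19 it was 12.6 or 11.2 points. The log2 difference was 0.07 without section 12, 0.16 without 13, 0.03 without 16, 0.60 without 19 and 0.95 without 15, and 0.64 without both border sections. Beyond these sections the share was 0.453% to 2.16% in sections 1 to 11 and 12.2% to 17.4% in sections 20 to 22. It was 5.23% to 9.11% in the inner oral-aboral sections (3 to 6) and at most 0.892% in any left-right section.

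**Figure D1:**
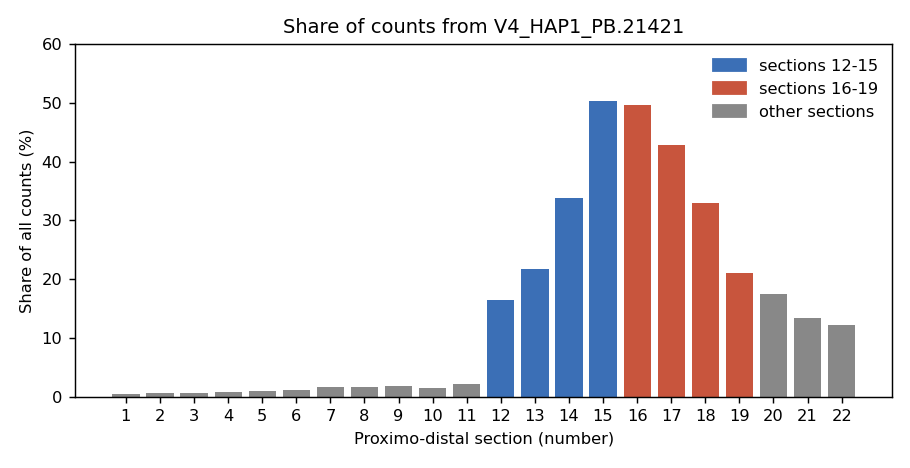
Share of all counts (percent, vertical axis) that came from V4_HAP1_PB.21421 in each of the 22 proximo-distal sections (horizontal axis, 1 library a bar). The bars climb from 16.5% in section 12 to 50.3% in section 15 and descend from 49.6% in section 16 to 21.1% in section 19.

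Between the sides, 2 of 8229 loci passed the test (0.0243%), both higher in sections 16 to 19: the homeobox gene Nkx2.2 and the unnamed locus V4_HAP1_PB.4897. Of loci higher in sections 12 to 15, 0 passed in edgeR and 0 passed in DESeq2 and in limma. The counts turned on single sections: 0 loci passed without section 13, 14, 17 or 18, 11 higher in sections 16 to 19 and 12 higher in 12 to 15 passed without section 15, and 6 and 2 without section 19. At an unadjusted p under 0.05 there were 335 loci higher in sections 16 to 19 (4.07%) and 331 higher in sections 12 to 15 (4.02%), 666 in all (8.09%). Such a threshold passes 411 when no locus differs and the sections are independent. Neighbouring sections of 1 arm need not be independent, so 411 is not a firm yardstick. The median log2 difference over all loci was 0.02. The test on simulated counts recovered 100% of loci given a log2 difference of 3 and 21% of those given a difference of 1. Differences of the size of a doubling thus mostly could not be seen with the sections, spread and depth that were simulated. Which of these set the limit was not tested. The same simulated test also called 10 loci that had been given no difference. The simulated sections were drawn independently, with no gradient between neighbours, unlike the sections of an arm.

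Nkx2.2 was the gut and NK homeobox gene that differed. Its counts in sections 12 to 15 were 2, 1, 1 and 2, or 8.08, 3.20, 2.58 and 10.9 CPM. Its counts in sections 16 to 19 were 7, 27, 18 and 17, or 26.9, 69.3, 71.5 and 66.2 CPM. Every section of 16 to 19 lay above every section of 12 to 15, and each value of the lower side was below the floor of 3 counts. Nkx2.2 passed the low-count filter by its counts in sections 16 to 19 alone. Its lack of overlap follows from that and is no separate support. Section 16, next to the border, was the lowest of its side and was set apart from the 3 that follow it. The means were 6.18 ± 3.98 and 58.5 ± 21.1 CPM (SD, n = 4), a ratio of 9.46, and the fitted log2 difference was 3.40 ± 0.51 with a 95% interval from 2.33 to 4.47 (adjusted p = 0.0107, edgeR).

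The Nkx2.2 level was higher still past the compared sections, at 171 CPM in section 20, 573 CPM in section 21 and 898 CPM in section 22. In sections 1 to 11 it was at most 25.7 CPM, with a median of 7.31. In the oral-aboral series of the same specimen Nkx2.2 stood at 202 ± 58.9 CPM in the inner sections against 13.1 ± 16.9 CPM in the outer ones (SD, n = 4 each). In specimen 2 the central left-right sections (6 to 11) held 21.6 ± 23.7 CPM (n = 6) and the outer ones 1.15 ± 1.02 CPM (n = 10), a spread among the central sections as wide as their mean.

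V4_HAP1_PB.4897 had counts of 0, 2, 8 and 3 in sections 12 to 15 and of 20, 48, 51 and 18 in sections 16 to 19. The means were 10.8 ± 9.38 and 118 ± 60.9 CPM (SD, n = 4), and the fitted log2 difference was 3.37 ± 0.50 (adjusted p = 0.0107, edgeR). Its groups did not overlap either. It passed the low-count filter through sections 16 to 19, so the lack of overlap is no separate support. Within the higher side it peaked at 203 CPM in section 18 and was down to 70.1 CPM in section 19. Both calls rest on few counts. Nkx2.2 missed the threshold without section 13 (adjusted p = 0.112, edgeR), 14 (0.195), 17 (0.0619) or 18 (0.0788), and in a fit of all 22 sections (0.0650). V4_HAP1_PB.4897 missed it without section 13 (0.112), 14 (0.0509), 17 (0.0541) or 18 (0.0788), and with a minimum count of 10 (0.0850), a filter that Nkx2.2 did not pass.

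**Figure D2:**
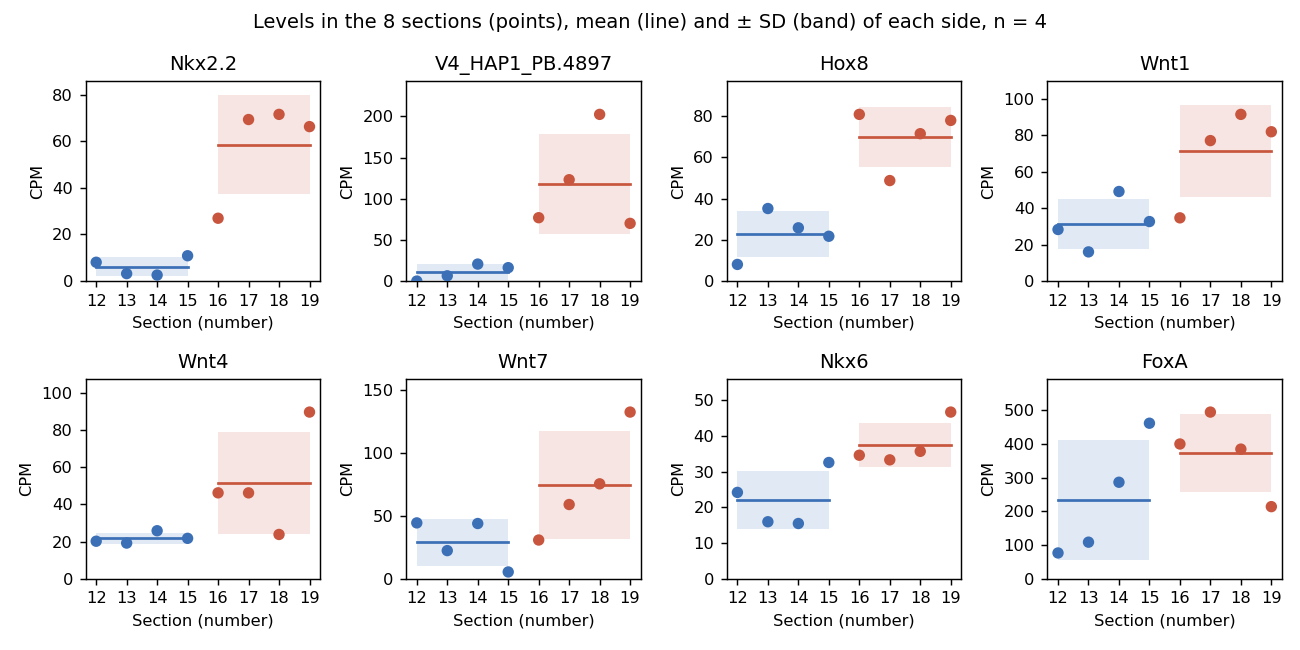
CPM (vertical axes, each starting at 0) of 8 loci in proximo-distal sections 12 to 19 (horizontal axes), with 1 point a section, blue for 12 to 15 and red for 16 to 19, and the mean and SD of each side as line and band. Nkx2.2, V4_HAP1_PB.4897, Hox8 and Nkx6 are higher in each section of 16 to 19 than in any of 12 to 15. FoxA forms a dome from 76.7 CPM in section 12 to 495 CPM in section 17 and 214 CPM in section 19.

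The other 3 gut and NK homeobox genes that passed the filter, FoxA, Nkx2.1 and Nkx6, had positive log2 differences of 0.23 to 0.88 and did not pass the test. Msx, the fifth gene of the list, had 27 counts in all and was not tested. Nkx6 had counts of 6, 5, 6 and 6 in sections 12 to 15 and of 9, 13, 9 and 12 in sections 16 to 19. Its highest level on the lower side, 32.6 CPM in section 15, was just under its lowest on the other, 33.4 CPM in section 17. The log2 difference of Nkx6 was 0.88 ± 0.38 (unadjusted p = 0.0311, adjusted p = 0.558, edgeR).

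FoxA, by contrast, differed more within the sides than between them. It had 76.7, 109, 287 and 462 CPM in sections 12 to 15 and 400.4, 495, 385 and 214 CPM in sections 16 to 19, from 19 to 193 counts a section. Both sides held high and low sections, so the groups overlapped, and the log2 difference of 0.75 ± 0.40 did not pass (95% interval -0.09 to 1.59, adjusted p = 0.648, edgeR). Like Nkx2.2, FoxA was highest at the far end of the axis, with 328, 879.7 and 1918 CPM in sections 20, 21 and 22, and it was at most 26.0 CPM in sections 1 to 11. V4_HAP1_PB.21421, whose dome FoxA resembled in sections 12 to 19, was at its lowest share of sections 12 to 22 in section 22.

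Among the Hox genes, which pattern the main body axis of many animals, 6 of 13 passed the filter and 0 of 6 passed the test in edgeR, with 3 positive and 3 negative differences and a median of 0.18. Of these, 1 reached an unadjusted p under 0.05. It was Hox8, with 2, 11, 10 and 4 counts in sections 12 to 15 and 21, 19, 18 and 20 counts in sections 16 to 19. In CPM the lower side held 8.08, 35.2, 25.8 and 21.7 and the higher side 80.8, 48.7, 71.5 and 77.9, and the groups did not overlap. The log2 difference was 1.56 ± 0.36 (95% interval 0.80 to 2.33, unadjusted p = 0.000414, adjusted p = 0.215, edgeR), and Hox8 passed only where no low-count filter was used (adjusted p = 0.0206). Non-overlap in that direction was seen in 125 loci (1.52%), and in the opposite direction in 220 loci (2.67%). Among the 34 named genes it was seen in 3, Hox8, Nkx2.2 and Nkx6, all higher in sections 16 to 19. For Nkx2.2 it follows from how the gene passed the filter. Hox8 and Nkx6 would also have passed the filter by sections 16 to 19 alone, so their lack of overlap is a description.

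Hox8 was high over a short stretch of the axis. Its 22 proximo-distal values peaked at 80.8 CPM in section 16, stood at 39.9 CPM in section 20 and were 8.61 and 3.70 CPM in sections 21 and 22. In sections 1 to 11 it ranged from 0 to 37.2 CPM. The remaining tested Hox genes, Hox1, Hox5, Hox7, Hox9-10 and Hox11-13b, had log2 differences from -0.58 (Hox5) to 1.10 (Hox7), each with an interval that included 0. Hox11-13a, Hox11-13c and Hox11-13e had 0 counts in all 8 sections, and the other 4 untested Hox genes had at most 35.

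Of the 10 Wnt ligands, the secreted proteins that start the pathway, 5 passed the filter and 0 of 5 passed the test in edgeR. Their median log2 difference was 1.17 against 0.02 over all loci, with 3 positive and 2 negative. Wnt1, Wnt4 and Wnt7 each reached an unadjusted p under 0.05 and were higher in sections 16 to 19; Wnt3 (-0.40) and Wnt5 (-0.11) did not reach it. Wnt1 had 28.3, 16.0, 49.1 and 32.6 CPM in sections 12 to 15 and 34.6, 77.0, 91.3 and 81.8 CPM in sections 16 to 19. Section 16 was the low member of the higher side and lay below section 14, so the groups overlapped. The log2 difference of Wnt1 was 1.17 ± 0.37 (adjusted p = 0.425, edgeR).

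Wnt4 was even across the lower side, with 20.2, 19.2, 25.8 and 21.7 CPM, and uneven across the higher one, with 46.2, 46.2, 23.8 and 89.6 CPM. With 1 count worth 2.57 to 5.44 CPM, the lower of these levels, and of those of Wnt1, rest on few counts. Section 18 fell within the range of the lower side, and section 19 was the highest of all 22 proximo-distal sections. Its log2 difference was 1.24 ± 0.40 (adjusted p = 0.440, edgeR). Wnt7 had 44.4, 22.4, 43.9 and 5.44 CPM in sections 12 to 15 and 30.8, 59.0, 75.5 and 132 CPM in sections 16 to 19. It was lowest next to the border in section 15, from 1 count, and highest in section 19, and sections 12 and 14 lay above section 16. Its log2 difference was 1.27 ± 0.44 (adjusted p = 0.459, edgeR). A second row of the table is labelled as overlapping Wnt7, and how reads were divided between the pair is not stated.

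Wnt1, Wnt4, Wnt7 and Hox8 each had their highest level of the 22 sections within 16 to 19, and Wnt1, Wnt4 and Hox8 were all at 39.9 CPM in section 20 and at most 8.61 CPM in sections 21 and 22. In the same far sections Nkx2.2 and FoxA were at their highest. In sections 1 to 11 Wnt1 reached at most 20.0 CPM, Wnt4 40.0 CPM and Wnt7 77.6 CPM, so the 16 to 19 mean of Wnt7, 74.4 CPM, was not above the range seen there. In the oral-aboral series the inner sections held 77.3 ± 15.1 CPM of Hox8 against 18.0 ± 16.0 in the outer ones, and 38.4 ± 12.8 CPM of Nkx6 against 7.47 ± 3.08 (SD, n = 4 each). Wnt1 held 16.6 ± 9.62 against 2.85 ± 4.04 CPM and Wnt4 17.6 ± 14.3 against 3.40 ± 2.36 CPM there. Wnt7 is not included in these values, which therefore do not cover every gene named above. These genes were picked for their order in sections 12 to 19, and no test was made on the other axes.

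The receiving end of the Wnt pathway gave no call between the sides. Of 8 receptors and secreted antagonists, 4 passed the filter and 0 of 4 reached an unadjusted p under 0.05 in edgeR. Fzd1-2-7, a Frizzled receptor, had 131 to 136 CPM in the 4 sections of 12 to 15 and 115 to 144 CPM in those of 16 to 19. Its log2 difference was -0.02 with a 95% interval from -0.44 to 0.40, which leaves out a change of 1.5-fold in either direction. Sfrp1-5, a secreted antagonist, differed by -0.08, Fzd9-10 by 0.09 and Fzd5-8 by -0.19.

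Other secreted signals did not pass either. All 6 genes of the list (ADMP, BMP2-4, Chordin, FGF8-17-18, Hedgehog and Tolloid) passed the filter, 0 of 6 reached an unadjusted p under 0.05 in edgeR, and 5 of 6 differences were negative, with a median of -0.25. BMP2-4, a BMP ligand, had 144 ± 23.6 and 117 ± 19.4 CPM (SD, n = 4), and Chordin, its extracellular antagonist, 66.5 and 62.5 CPM on average. FGF8-17-18, a fibroblast growth factor, had 101, 99.2, 46.5 and 54.4 CPM in sections 12 to 15 and 43.6 to 58.4 CPM in sections 16 to 19. Sections 12 and 13 stood above the other 6, and its difference of -0.53 (95% interval -1.16 to 0.11) did not pass.

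Of 20 anterior and neural regulators 6 passed the filter (Emx, Engrailed, Irx, Lhx1-5, Otx and Pax2-5-8), with 0 of 6 at an unadjusted p under 0.05 in edgeR and differences from -0.59 (Lhx1-5) to 0.84 (Otx). The 14 others were too thinly read for a test, Pax6 most nearly with 42 counts in the 8 sections. Irx, an Iroquois homeobox factor, had 87.0 to 129 CPM in sections 12 to 15 and 74.4 to 88.5 CPM in sections 16 to 19, ranges that barely overlapped, and its log2 difference of -0.35 did not pass (95% interval -0.82 to 0.12). It was then at 274, 541 and 588 CPM in sections 20 to 22. Of the remaining named genes, Lhx3-4, Lmx and Tbx2-3 passed the filter, and 0 of these 3 reached an unadjusted p under 0.05. Tbx2-3, a T-box factor, was even, with 294 to 375 CPM on one side and 262 to 351 CPM on the other and a log2 difference of -0.01 (95% interval -0.43 to 0.41). In all, 6 of the 34 named genes reached an unadjusted p under 0.05 higher in sections 16 to 19 and 0 of 34 in the other direction, beside 4.07% and 4.02% of all loci.

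**Figure D3:**
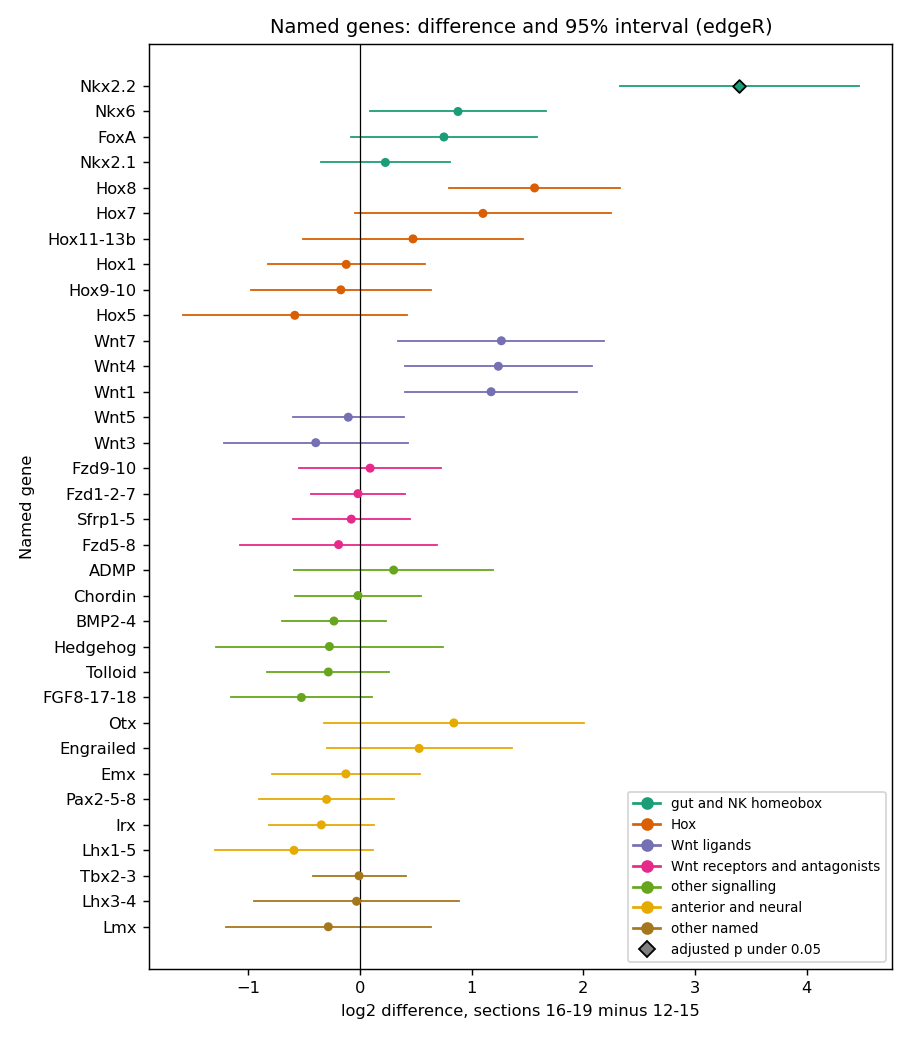
Fitted log2 difference between sections 16 to 19 and 12 to 15 (horizontal axis; points, with lines for the 95% interval) for the 34 named genes that passed the low-count filter (vertical axis), coloured by list. Nkx2.2 at 3.40 carries the one diamond, an adjusted p under 0.05, and the genes nearest to it, Hox8, Wnt7, Wnt4 and Wnt1, lie between 1.17 and 1.56.

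Of the loci with no gene name, V4_HAP1_PB.5846 came next on the higher side, with 4.04, 76.8, 67.2 and 76.1 CPM in sections 12 to 15 and 269, 354, 369 and 121 CPM in sections 16 to 19 (log2 difference 2.34 ± 0.42, adjusted p = 0.0713, edgeR). The loci with the smallest p among those higher in sections 12 to 15 were V4_HAP1_PB.25110 and V4_HAP1_PB.21916. V4_HAP1_PB.21916 had 88.8, 64.0, 59.4 and 43.5 CPM against 15.4, 18.0, 19.9 and 23.4 CPM, with no overlap, and V4_HAP1_PB.25110 had 123 ± 30.3 against 44.8 ± 19.8 CPM (SD, n = 4). Neither passed (adjusted p = 0.119 for each, edgeR). V4_HAP1_PB.21916 passed the low-count filter through sections 12 to 15, so its lack of overlap is no separate support.

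The loci that leaned to either side were arranged differently on the axes that were not used to find them. The 335 loci with an unadjusted p under 0.05 higher in sections 16 to 19 had a median inner minus outer oral-aboral difference of 0.91 on the log2 scale, and 79.7% of them were above 0. The 331 loci higher in sections 12 to 15 had a median of -0.83, and 11.5% of them were above 0. Over all 8229 loci the median was -0.04 with 47.7% above 0. In specimen 2 the central minus outer left-right medians were 0.47 and -0.27 for these 2 sets, against 0.12 over all loci. These are descriptions with no test, and the oral-aboral sections share their animal with the 8 sections.

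With a term for position beside the step, a common slope within the sides, the step term was called in 4 loci (0.0486%). These were Nkx2.2, by 3.38 (adjusted p = 0.0203, edgeR), V4_HAP1_PB.4897 and a further unnamed locus upwards, and 1 unnamed locus downwards. Without section 13, 14, 17 or 18 there were 0 such loci, without section 15 there were 9, and without section 19 there were 83. The step was fitted at this border alone, so its place was set in advance and was not found by the fit. The slope itself was called in 0 loci in edgeR and in DESeq2, with 258 (3.14%) at an unadjusted p under 0.05; without section 19 it was called in 1. A common slope cannot take up a dome, in which levels climb on one side and descend on the other. A squared term over sections 12 to 19 was therefore fitted as well. It was added after the profiles of V4_HAP1_PB.21421 and FoxA had been seen, so their own values for it describe a known pattern. The coefficient is the fitted log2 difference between the middle of the 8 sections and their ends.

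By that term, 639 of 8229 loci were curved (7.77%), 504 with the middle high (6.12%) and 135 with the ends high (1.64%), and 1633 loci had an unadjusted p under 0.05 (19.8%). Of the 2 loci called between the sides, 1 was also curved, V4_HAP1_PB.4897. A linear term fitted beside it was called in 229 loci (2.78%), 132 higher towards section 19 and 97 towards section 12. The counts of curved loci depend on single sections. Without section 19 there were 158 middle-high and 24 end-high loci, and without both border sections, 15 and 16, there were 272 and 16. End-high loci numbered 62 without section 15 and 68 without section 16. The split between the directions depends on how libraries are scaled. It was 504 middle-high and 134 end-high loci with RLE size factors in place of TMM. With total counts alone and V4_HAP1_PB.21421 left out, it was 467 and 172. With V4_HAP1_PB.21421 left in the table and TMM kept, 503 loci were middle-high and 129 end-high. With it left in the totals and no TMM, 209 loci were middle-high and 2140 end-high, and the median curve of all loci moved from -0.02 to -0.70.

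The 504 middle-high loci together took 5.18%, 10.2%, 15.7% and 19.4% of the counts outside V4_HAP1_PB.21421 in sections 12 to 15, and 20.5%, 17.7%, 17.3% and 8.49% in sections 16 to 19. The dome is fixed by the choice of these loci, which were selected on the same 8 sections, as are the sections where they peak; V4_HAP1_PB.21421 is not among them. Their highest section was 15 for 188 loci, 17 for 152 and 16 for 115, and their lowest was 12 for 302 and 19 for 166. The sides were not mirror images. Section 12 was lower than section 19, and 453 of the 504 loci (89.9%) had a positive difference between the sides, with a median of 0.42, against 51.6% of all loci. The loci share the same 8 libraries, so they are not separate observations of this asymmetry. At an unadjusted p under 0.05 for the difference between the sides there were 60 of the 504 (11.9%), beside 8.09% of all loci.

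Outside the 8 sections these 504 loci made up 1.19% to 1.45% of the other counts in sections 1 to 11 and 8.42% to 10.7% in sections 20 to 22. The change from section 11 to section 12 was thus from 1.45% to 5.18%. In the oral-aboral series they made up 12.5% to 14.4% in sections 3 to 6, 6.96% in section 2 and 1.27% to 2.30% in sections 1, 7 and 8. Inner exceeded outer for 97.2% of them, by a median of 3.10 on the log2 scale, against 47.7% of all loci. In the left-right series of specimen 2 the share was 0.761% in section 1 and highest at 10.1% in section 6. It was not high across the centre. The central sections 9 and 10 held 1.69% and 1.59%, less than any of sections 3 to 5 and 12 to 16. The outer sections 3, 4 and 5 held 5.95%, 7.24% and 8.54%, so the profile was uneven between the 2 flanks. V4_HAP1_PB.21421 itself took at most 0.892% of a left-right library.

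**Figure D4:**
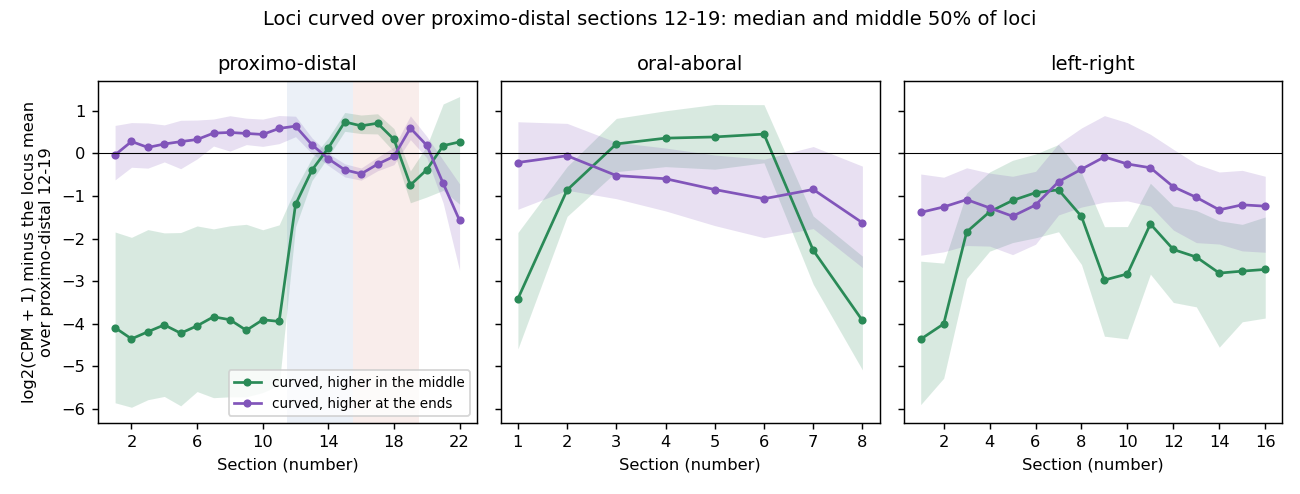
Median (line with points) and middle 50% of loci (band) of log2(CPM + 1) minus each locus's mean over proximo-distal sections 12 to 19, along the 3 axes (horizontal: section number), for the 504 loci curved with the middle high and the 135 with the ends high. Shading marks sections 12 to 15 (blue) and 16 to 19 (red); the form within the shading was used to choose the loci, and the rest of the panels was not.

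FoxA was the 1 named gene of 34 called curved, beside 7.77% of all loci, with a coefficient of 1.97 ± 0.26 and a 95% interval from 1.44 to 2.50. V4_HAP1_PB.21421 had 2.11 ± 0.24, from 1.62 to 2.60. Both profiles had been seen before the curve was added, so these values describe a known pattern. Nkx2.2 had 1.10 ± 0.70 and was not called (adjusted p = 0.416, edgeR). Nkx2.1, an NK homeobox factor, had 101, 83.2, 132 and 196 CPM in sections 12 to 15 and 200.2, 123, 139 and 109 CPM in sections 16 to 19, with both sections at the border high. Its coefficient of 0.86 ± 0.29 did not pass (adjusted p = 0.0698, edgeR). In the same test Emx (1.01, adjusted p = 0.0896) had a positive coefficient, and Wnt7 (-1.17, 0.117), Lmx (-1.13, 0.215), Fzd9-10 (-0.86, 0.131) and Sfrp1-5 (-0.71, 0.0953) had negative ones. With FoxA and Nkx2.1 these are the 7 named genes at an unadjusted p under 0.05, beside 19.8% of all loci, and none but FoxA passed.

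Sfrp1-5 held 202 and 269 CPM in sections 12 and 13, 136 to 163 CPM in sections 14 to 18 and 245 CPM in section 19. It thus ran opposite to the dome within the 8 sections, and it was at 311, 449 and 772 CPM in sections 20 to 22. Of the unnamed loci, V4_HAP1_PB.15838 showed the dome with the smallest p. It had 125, 298, 462 and 734 CPM in sections 12 to 15 and 558, 503, 254 and 117 CPM in sections 16 to 19, was at most 4.29 CPM in sections 1 to 11 and stood at 1.72 and 0 CPM in sections 21 and 22. V4_HAP1_PB.19301 was more abundant, from 2867 CPM in section 12 to 14465 in section 15, 14418 in section 16 and 5474 in section 19, and stayed at 4213 to 4953 CPM in sections 20 to 22. Loci with the same form in sections 12 to 19 therefore parted beyond section 19.

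The 135 end-high loci took 9.49% of the other counts in section 12, 4.86% in section 16 and 9.70% in section 19. Their highest section was 12 for 69 and 19 for 66. V4_HAP1_PB.18424, one of the pair with the smallest p, had 654, 464, 408 and 255 CPM in sections 12 to 15 and 296, 298, 322 and 764 CPM in sections 16 to 19. The other, V4_HAP1_PB.23302, had 812 CPM in section 12, 312 CPM in section 16 and 693 CPM in section 19. Both calls were lost without section 19 (adjusted p = 0.194 and 0.0738, edgeR). In sections 1 to 11 the end-high set took 6.89% to 10.5%. Past section 19 it fell, to 7.58%, 3.83% and 2.11% in sections 20, 21 and 22. In sections 21 and 22 it was thus below its share in section 16. V4_HAP1_PB.18424 and V4_HAP1_PB.23302 stood at 14.8 and 37.0 CPM in section 22. Since CPM is a share, part of a fall in the middle can come with the rise of other loci; their part in the result was not tested.

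**Figure D5:**
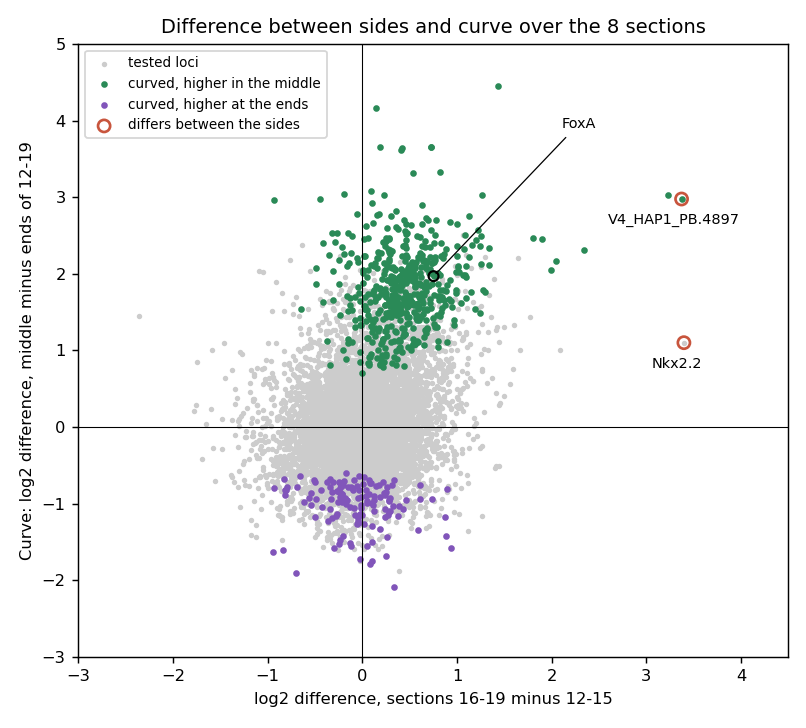
Each of the 8229 tested loci by its log2 difference between sections 16 to 19 and 12 to 15 (horizontal axis) and its curve, the fitted log2 difference between the middle and the ends of the 8 sections (vertical axis). The 504 loci curved with the middle high lie mostly to the right of 0, Nkx2.2 and V4_HAP1_PB.4897 (ringed) stand apart at 3.40 and 3.37, and FoxA (black ring) lies within the curved set.

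Over the 1999 loci with a mean of at least 100 CPM, sections of the same side were hardly closer to each other than to sections of the other side. The root mean square log2 difference averaged 0.557 over 12 same-side pairs (0.363 to 0.822) and 0.592 over 16 pairs across the border (0.372 to 0.835). Section 15 was nearest to section 16, and section 16 to section 15, at 0.372. Section 19 was nearest to section 13 at 0.549, and section 12 was farthest from section 17 at 0.835. These distances are a description of 8 libraries, with no test. Total counts differed by 61441 between the side means (exact two-sided permutation p = 0.543), and the number of loci detected was lower by 111 in sections 16 to 19 (p = 0.857, same test). Both differences were smaller than the SD over the 4 sections of either side.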

How the data were processed

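PolyA RNA was prepared with Iso-Seq Express and SMRTbell kits, per the labels' protocols. The deposited table holds raw counts per transcript model, as whole numbers with a different total in each library; aligner, counter, strand setting and build: not given in the sources used here. Its 25794 rows were summed to 23869 loci (1925 had 2 rows), and V4_HAP1_PB.21421 was left out before library totals. Counts were tested with edgeR 4.0.16 in R 4.3.3: filterByExpr (minimum count 5, total 15), TMM (factors 0.966 to 1.03), glmQLFit and glmQLFTest, with Benjamini-Hochberg adjustment over all 8229 loci tested and a threshold of 0.05. SEs were derived from the estimate and its F. Displayed CPM carries no TMM factor. V4_HAP1_PB.21421 was tested apart, with totals of the other loci. DESeq2 1.42.0, limma 3.58.1, other scalings and filters, a covariate and leaving out sections were the alternatives. The other axes were described by mean log2 CPM (prior count 2). The fits were tested on simulated data.

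The sections, gene lists and tests were chosen with earlier results of these data known. Full values are given for named genes past the threshold and for up to 8 more at an unadjusted p under 0.05; among unnamed loci, for V4_HAP1_PB.21421 and the 2 with the smallest p in each direction. The curve, and the genes named for it or as even profiles, were added after the data were seen.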

Additional observations from a re-analysis of the deposited data

Results flagged for a closer look

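In 5 of 90 sets of 4 sections, a section lay far from the other 3 by Dixon's criterion; chance gives about 1 in 20, or 4.5. Nkx2.2 stood at 26.9 CPM in section 16, against 66.2 to 71.5 CPM in sections 17 to 19, so the first section past the border lay between the sides. Engrailed, a homeobox factor, stood at 10.9 CPM in section 15, against 36.2 to 38.4 CPM in sections 12 to 14. Fzd9-10, a Frizzled receptor, stood at 117 CPM in section 19, against 47.7 to 59.0 CPM in sections 16 to 18. V4_HAP1_PB.5846 stood at 4.04 CPM in section 12, against 67.2 to 76.8 CPM in sections 13 to 15. V4_HAP1_PB.18424 stood at 764 CPM in section 19, against 296 to 322 CPM in sections 16 to 18. All 5 values lay at the outermost sections 12 and 19 or at the border, in sections 15 and 16. These are 4 of the 8 sections compared, and no test was made of that.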

How the results depend on the processing

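No paired analysis was possible because section numbers are positions and the 2 sides share none of them. The count of loci called between the sides, 2 and 0 (higher in sections 16 to 19 and in 12 to 15), was 6 and 0 with V4_HAP1_PB.21421 kept and total counts alone, 21 and 22 (43) with no low-count filter, 0 with a minimum count of 10, 4 and 0 in DESeq2, 1 and 0 with all 22 sections fitted, 7 and 6 (13) without both border sections, and 3 and 3 (6) with linear position in place of sides. Leaving out 1 section gave 0 (without 13, 14, 17 or 18) to 23 (without 15), with 0 to 11 and 0 to 12 by direction. The step count, 4, was 40 with no filter, 0 with a minimum of 10 or total count as covariate, 7 in DESeq2 and 0 to 83 with 1 section out (0 without 13, 14, 17 or 18, 9 without 15, 83 without 19). The slope count, 0, was 1 with V4_HAP1_PB.21421 kept and total counts alone and 1 with no filter, and 0 to 1 with 1 section out (1 without 19). The curve, 504 and 135 (middle, ends), was 209 and 2140 with V4_HAP1_PB.21421 kept and total counts alone (503 and 129 with it kept and TMM), 290 and 50 in DESeq2, 272 and 16 without both border sections, and 158 to 571 and 24 to 135 with 1 section out; with no filter 81 were higher at the ends. FoxA, whose profile had been seen before the curve was added, stayed called in every curve fit run. The causes were not tested beyond the loss of samples or loci that some of these bring.

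Log2 differences near 0 changed sign. With V4_HAP1_PB.21421 kept and total counts alone, Fzd9-10 came to -0.068; without both border sections Tbx2-3 to 0.0073; with linear position Fzd1-2-7 to 0.0093, Lhx3-4 to 0.10 and Tbx2-3 to 0.047. With 1 section out the ranges were -0.18 to 0.057 for Chordin, -0.52 to 0.18 for Lhx3-4, -0.50 to 0.063 for Lmx, -0.28 to 0.15 for Sfrp1-5, -0.25 to 0.20 for Fzd9-10, -0.38 to 0.042 for Hox9-10, -0.078 to 0.054 for Tbx2-3, -0.26 to 0.015 for Wnt5, -0.45 to 0.052 for Emx, -0.078 to 0.0095 for Fzd1-2-7, -0.51 to 0.079 for Hox1 and -0.056 to 0.53 for ADMP, -7381 to 118699 for total counts and -608 to 368 for loci detected.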
